A study of Bos taurus with 56 samples.

Results

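The contralateral isthmus of lactating cows was compared with that of heifers, in 9 of the 56 libraries of the series. The 9 libraries are those whose columns in the deposited count table are named for the isthmus contralateral to the corpus luteum (CL) of 4 lactating cows and 5 heifers. Epithelial RNA of the ampulla and the isthmus on both sides was sequenced in 14 Holstein animals (the 4 lactating cows, 5 non-lactating cows that were never milked after calving, and the 5 heifers). The lactating cows were primiparous and milked after calving, and they were slaughtered 60 days post-partum. The heifers were nulliparous. All animals had their estrus synchronized with an intravaginal progesterone device, a prostaglandin F2α analogue and buserelin, and all tissues were collected on Day 3 after estrus. Each animal gave 1 library per tissue, so the animal is the replicate, and letters stand for the animals in the order of their numbers in the column names (lactating cows A to D, heifers A to E). Because every lactating cow had also calved and no heifer had, the effects of lactation, of calving and of the post-partum state cannot be told apart in this comparison.

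The isthmus is the narrow segment of the oviduct next to the uterus, where sperm are stored before ovulation and through which the early embryo passes. Its epithelium is made of ciliated cells, which move fluid and cells along the duct, and of secretory cells, which release proteins such as oviductin (OVGP1) into the fluid around the gametes and embryo. The contralateral oviduct lies on the side without the CL, the gland that secretes progesterone. Lactation draws glucose, fatty acids and cholesterol towards the mammary gland and is accompanied by a negative energy balance in dairy cows.

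The counts on genes amounted to 4293913 to 4905785 per library in lactating cows (median 4662131) and 2238157 to 4990519 in heifers (median 4152894), with the smallest depths in heifers B (2238157) and A (2793889). The defining marker of ciliated cells, FOXJ1, had 188 to 246 CPM (a gene's counts relative to the library total, on a scale common to all 56 libraries) in lactating cows and 178 to 246 CPM in heifers, and the epithelial adhesion gene EPCAM had 307 to 371 and 358 to 485 CPM. OVGP1 had 8561, 12653, 4956 and 14566 CPM in lactating cows A to D and 3079, 6483, 96.1, 14939 and 18708 CPM in heifers A to E, so that heifer C was far below the other 8 libraries. The defining markers of fibroblasts (COL1A1) and neutrophils (CSF3R) were at 0 to 2.20 and 0 to 0.399 CPM in lactating cows and 0 to 3.36 and 0 to 0.889 CPM in heifers, and the hemoglobin gene HBA had 0 counts in all 9. Summed over all 10 fibroblast markers, however, the level was 115 to 591 CPM in the cows and 212 to 346 CPM in the heifers. The endothelial sums were 48.8 to 124 and 17.6 to 67.7 CPM, and the mast cell sums 117 to 190 and 90.4 to 163 CPM. The libraries of heifer C and lactating cow C stood apart, with median correlations of log2 CPM with the other 8 libraries of 0.926 and 0.937, against 0.948 to 0.961 for the rest. Heifer C also correlated less with its own ipsilateral isthmus (r = -0.043 over 10616 genes centred on their group) than with that of heifer A (r = 0.418), whereas with the contralateral ampulla it correlated best with its own (r = 0.241). Its labels were kept, and an exchange of libraries was not tested. The animal number of lactating cow B is named as lactating in both isthmus samples and the contralateral ampulla and as non-lactating in the ipsilateral ampulla, and that of non-lactating cow C the other way round. The ipsilateral ampulla enters no comparison here, the column names of the other tissues were kept, and a mix-up of the 2 animals was not tested. In bulk RNA, fewer cells of a type and less RNA per cell cannot be told apart.

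No gene passed the threshold between lactating cows and heifers. Of 13832 genes tested, 0 (0%) had an adjusted p under 0.05 by edgeR's quasi-likelihood test after Benjamini-Hochberg adjustment, and the smallest adjusted p was 0.235. An unadjusted p under 0.05 was found for 1478 genes (10.7% of those tested), 740 with a higher level in lactating cows (5.35%) and 738 with a lower level (5.34%), where chance gives 691.6. Of these, 34 (0.246%) were under 0.001. DESeq2's Wald test, run as an alternative, called 73 of 13743 genes (0.531%), 27 higher (0.196%) and 46 lower (0.335%) in lactating cows. The CPM of the 4 cows and the 5 heifers did not overlap for 451 genes (3.26%), 194 with all cows above (1.4%) and 257 with all cows below (1.86%). The median log2 fold change over all genes was 0.01, with 51.3% of genes above 0 and 48.7% below, and the median standard error was 0.19. Because no gene was called, the values below are descriptions of the genes of smallest unadjusted p and of gene lists, and "higher" and "lower" refer to the fitted levels. Counts of list members higher or lower are to be read against 51.3% and 48.7% of all genes. Those at an unadjusted p under 0.05 are to be read against 10.7% of all genes, 5.35% higher and 5.34% lower. Log2 fold changes are lactating cows minus heifers, and ± beside them is the standard error. For edgeR it was derived as the absolute log2 fold change divided by the square root of the F statistic. For DESeq2 it is the error that DESeq2 reports. Without heifer C and lactating cow C, a setting chosen after seeing the data, 511 genes were higher and 487 lower at an unadjusted p under 0.05 and 0 were called. Without lactating cow B alone there were 752 and 751, with 0 called.

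The 10 genes of smallest unadjusted p that were higher in all 4 lactating cows than in all 5 heifers included GMNN, KHDRBS3 and C3. GMNN, which encodes geminin, an inhibitor of DNA replication licensing, had 24.5, 21.0, 20.1 and 24.4 CPM in lactating cows A to D and 12.8, 12.4, 9.98, 11.1 and 10.1 CPM in heifers A to E, a log2 fold change of 1.01 ± 0.15. Its levels in the cows were close to each other and its highest heifer (A) lay well below the lowest cow (C). GMNN had the smallest unadjusted p of all genes tested (2.89e-05), with an adjusted p of 0.235 by edgeR's quasi-likelihood test after Benjamini-Hochberg adjustment and of 9.15e-04 by DESeq2. ANLN, which encodes the cytokinesis protein anillin, had 19.6, 15.2, 21.0 and 14.1 CPM in the cows and 8.30, 7.55, 8.24, 10.1 and 12.5 CPM in the heifers (0.90 ± 0.20). POLQ, the DNA polymerase of theta-mediated end joining, had 9.58, 6.43, 17.1 and 7.75 CPM against 3.80, 3.11, 4.77, 3.63 and 4.08 CPM (1.39 ± 0.31), with lactating cow C the highest library. In both genes every cow was above every heifer. The RNA-binding splicing regulator KHDRBS3 had 36.9, 36.7, 41.7 and 37.3 CPM in the cows and 18.3, 21.8, 10.4, 20.6 and 24.7 CPM in the heifers (1.01 ± 0.21). The 4 cows lay within a narrow range, and heifer C had the lowest level. Leaving out each animal in turn moved the log2 fold change of KHDRBS3 over 0.85 to 1.13.

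The complement component C3, on which all complement pathways converge, had the largest difference among these genes. Its levels were 1311, 83.9, 579 and 433 CPM in lactating cows A to D and 14.5, 73.3, 10.2, 82.4 and 73.9 CPM in heifers A to E (3.58 ± 0.76). Lactating cow B lay just above the highest heifer (D), whereas the other 3 cows were several times higher, and among the heifers A and C were the lowest. TGFBR2, the type II receptor for TGF-β, had 28.7, 35.3, 29.1 and 26.1 CPM in the cows and 22.1, 19.5, 21.0, 19.7 and 17.8 CPM in the heifers (0.58 ± 0.13). The remaining genes of smallest p without overlap were EMC10, a subunit of the endoplasmic reticulum membrane protein complex (0.45 ± 0.10), SPATA6L (0.47 ± 0.10), CCDC73 (0.78 ± 0.18) and CCDC60 (0.51 ± 0.12). For these 10 genes the unadjusted p ran from 2.89e-05 to 0.00138.

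**Figure D1:**
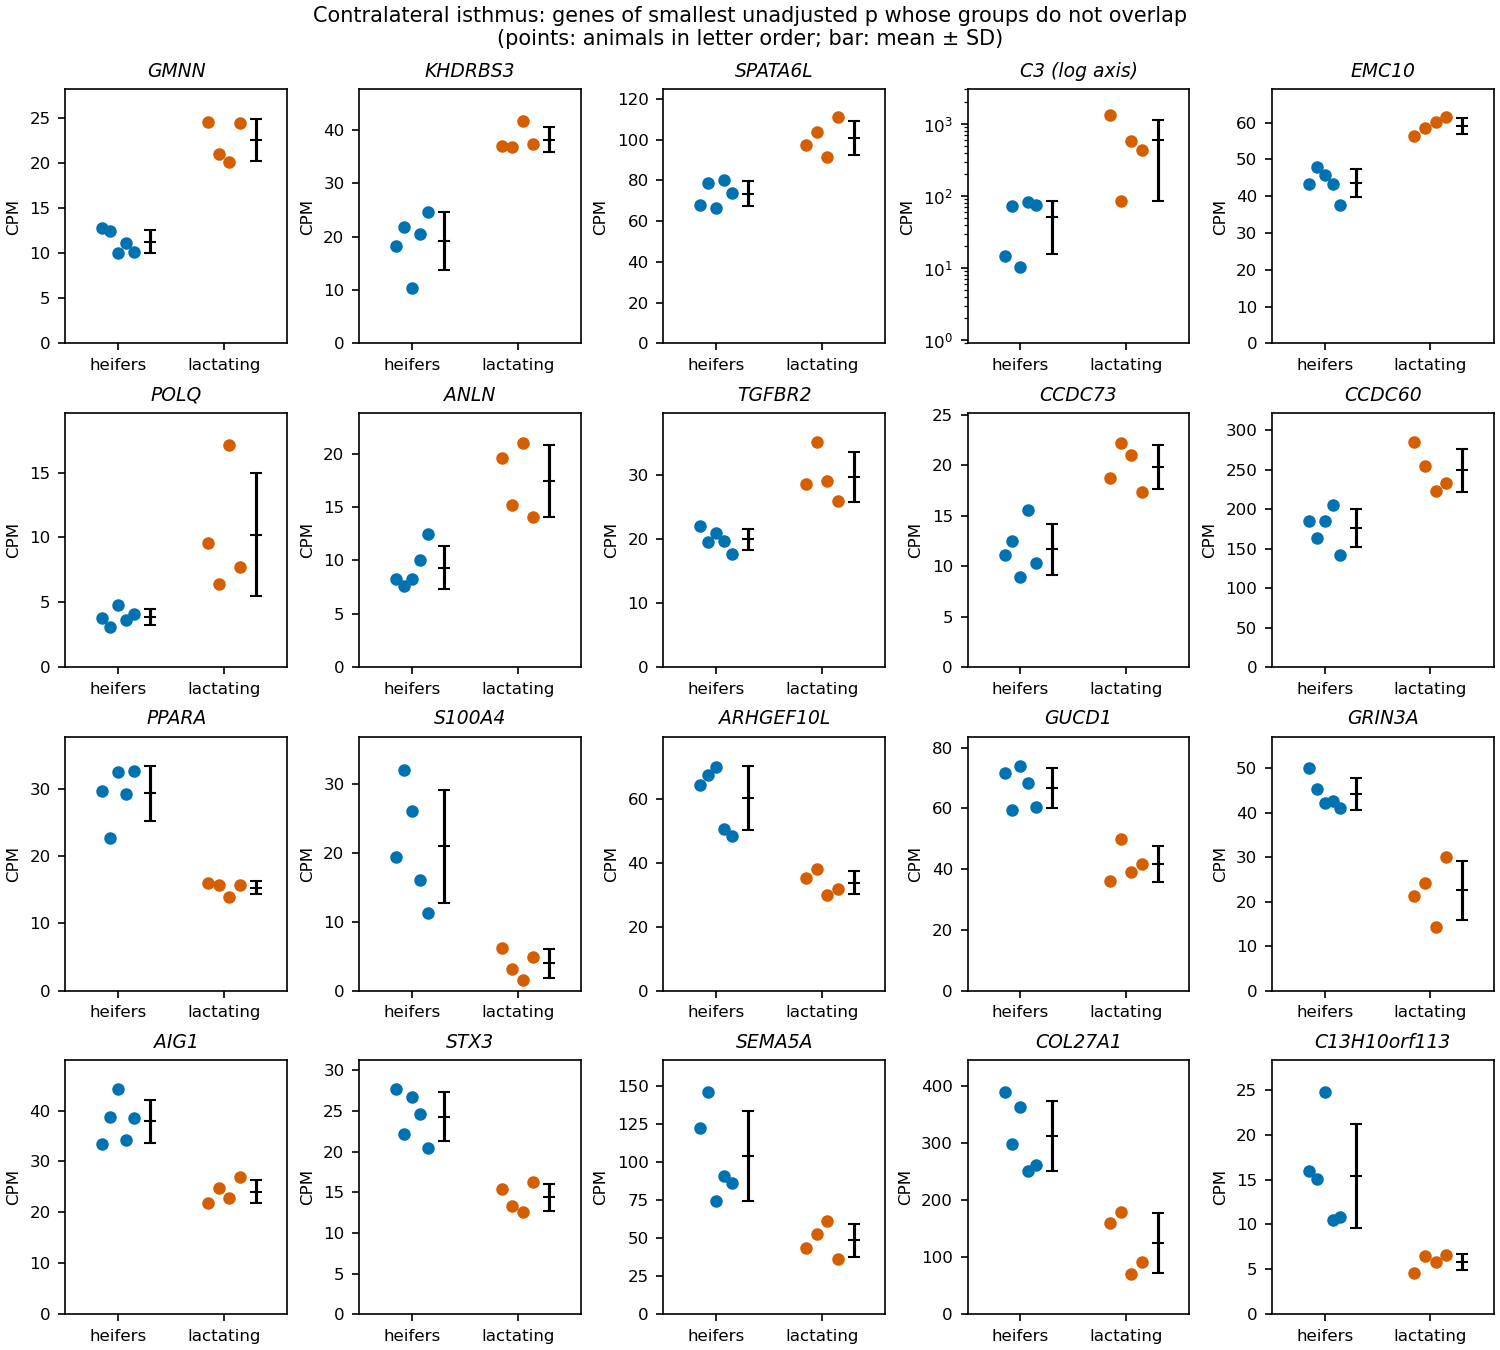
CPM of the 20 genes with the smallest unadjusted p whose 2 groups did not overlap, 10 higher (upper 2 rows) and 10 lower (lower 2 rows) in lactating cows, in the contralateral isthmus of 5 heifers (blue) and 4 lactating cows (orange). Each point is an animal, the bar beside each group is the mean ± SD, and the axis is linear from 0 except for C3, which has a log axis. GMNN lay at 20.1 CPM or more in the cows and 12.8 CPM or less in the heifers, and S100A4 at 6.19 CPM or less in the cows and 11.3 CPM or more in the heifers.

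Genes lower in all 4 lactating cows than in all 5 heifers included a regulator of fatty acid use, a calcium-binding protein and a collagen. PPARA, the nuclear receptor that activates genes of fatty acid oxidation, had 16.0, 15.8, 13.9 and 15.7 CPM in lactating cows A to D and 29.7, 22.7, 32.5, 29.2 and 32.6 CPM in heifers A to E (-0.93 ± 0.14, unadjusted p = 3.40e-05, edgeR). The cows spanned a narrow range below the lowest heifer (B), and the adjusted p was 0.235 by edgeR's quasi-likelihood test after Benjamini-Hochberg adjustment and 4.33e-04 by DESeq2. S100A4, a calcium-binding protein of the S100 family, had 6.19, 3.11, 1.498 and 4.93 CPM in the cows and 19.4, 32.0, 26.0, 16.1 and 11.3 CPM in the heifers (-2.38 ± 0.41), with as few as 7 counts in lactating cow C. It had the smallest adjusted p of all genes by DESeq2 (4.94e-05). COL27A1, a fibrillar collagen chain, had 159, 179, 70.2 and 91.4 CPM in the cows and 389.5, 299, 364, 251 and 261 CPM in the heifers (-1.32 ± 0.26). Cows C and D had the lowest COL27A1 levels. The guidance protein gene SEMA5A had 43.3, 53.1, 61.4 and 36.6 CPM against 123, 147, 74.8, 91.3 and 86.1 CPM (-1.09 ± 0.22).

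The other genes of smallest p on the lower side were the guanine nucleotide exchange factor gene ARHGEF10L (-0.82 ± 0.14), GUCD1 (-0.68 ± 0.12), the NMDA receptor subunit gene GRIN3A (-0.97 ± 0.18), AIG1 (-0.65 ± 0.13), the membrane fusion gene STX3 (-0.75 ± 0.15) and C13H10orf113 (-1.39 ± 0.28). GRIN3A had 21.4, 24.3, 14.3 and 30.1 CPM in lactating cows A to D and 50.1, 45.3, 42.1, 42.5 and 41.0 CPM in heifers A to E, and ARHGEF10L 35.3, 38.0, 30.0 and 31.7 CPM against 64.3, 67.5, 70.0, 50.6 and 48.2 CPM. In both genes the highest cow was well below the lowest heifer. The unadjusted p of the 10 lower genes ran from 3.40e-05 to 4.48e-04. None of these 20 genes changed sign when any animal was left out. They were chosen for no overlap between the groups, so this is set by the choice.

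The pathway list with the largest median difference was MHC class II antigen presentation, by which professional antigen-presenting cells and activated epithelia show peptides to T cells. All 7 genes tested were higher in lactating cows, 5 of them at an unadjusted p under 0.05 (5.35% of all genes), and their median log2 fold change was 1.90 against 0.01 over all genes. The β chain gene BLA-DQB had 108, 82.0, 153 and 14.8 CPM in lactating cows A to D and 8.99, 10.7, 3.47, 11.1 and 15.1 CPM in heifers A to E (3.19 ± 0.56). Lactating cows A to C stood far above the heifers, and cow D lay at the level of heifer E. Its adjusted p was 0.26 by edgeR's quasi-likelihood test after Benjamini-Hochberg adjustment and 0.00184 by DESeq2, and it was the gene that passed the threshold when lactating cow D was left out (log2 fold change 3.54, adjusted p = 0.0145). The DQ genes are close copies of each other and differ between animals, so reads of BLA-DQB may have been split between copies or lost, and its level is uncertain.

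Of the other members, CIITA, CD74 and BOLA-DMB were high in lactating cows A and C. CIITA, the transactivator that switches class II genes on, had 39.1, 4.77, 91.1 and 3.29 CPM in the cows and 5.53, 1.78, 0.651, 4.43 and 3.60 CPM in the heifers (3.44 ± 0.91). The invariant chain gene CD74 had 1830.5, 301, 730.4 and 205 CPM against 144, 239, 149.8, 294 and 187 CPM (1.93 ± 0.54). BOLA-DMB, which encodes a chain of the peptide loading factor DM, had 127, 23.9, 93.1 and 18.8 CPM against 12.1, 21.3, 10.4, 23.8 and 21.6 CPM (1.90 ± 0.53). In these 3 genes cows A and C were several times above every heifer, and cows B and D were within or close to the range of the heifers. Summed over the 12 genes of the list found in the table, the level was 2364, 481, 1169.8 and 316 CPM in lactating cows A to D and 227, 346, 234, 405 and 312 CPM in heifers A to E. Without lactating cow A, 6 of 7 genes were higher, 4 of them at an unadjusted p under 0.05, and the median log2 fold change was 1.03.

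Summed markers of macrophages, of T or NK cells and of B or plasma cells were highest in lactating cow A. The summed level of the 11 macrophage markers was 182, 70.4, 36.4 and 83.2 CPM in lactating cows A to D and 34.6 to 78.2 CPM in heifers. For the 18 T or NK cell markers the sums were 137, 38.2, 24.4 and 49.3 CPM against 26.3 to 47.1 CPM, and for the 11 B or plasma cell markers 140.3, 18.9, 9.20 and 12.2 CPM against 5.53 to 10.5 CPM. Cow A was thus far above all heifers in each of the 3 lists, and cow D was just above them in each. Cow B was above all heifers for B or plasma cell markers only. Cow C was within the heifers' range for macrophage and B or plasma cell markers and below it for T or NK cell markers. All 8 tested macrophage markers and all 6 tested T or NK cell markers were higher in the cows, at medians of 0.52 and 0.57, with 0 of them at an unadjusted p under 0.05. Without cow A, 2 of 8 and 3 of 6 were higher and the medians were -0.07 and 0.08, and without cow C, 4 and 3 were higher at that threshold and the medians were 0.85 and 0.81. The single tested gene of the B or plasma cell list, IGJ, the joining chain of secreted antibodies, had 126, 14.5, 7.27 and 8.46 CPM against 3.46, 4.00, 4.12, 8.46 and 5.04 CPM. The defining dendritic cell marker FLT3 had 12.4, 4.98, 7.92 and 6.34 CPM in the cows and 5.53, 1.78, 5.64, 3.22 and 2.88 CPM in the heifers (1.04 ± 0.37), overlapping between cow B and heifers A and C. Of the 2 dendritic cell markers tested, FLT3 was higher and the other, ZBTB46, was lower in the cows (-0.49). The summed dendritic cell markers were at 16.8, 9.13, 10.7 and 10.8 CPM against 9.68, 5.78, 6.72, 8.87 and 6.96 CPM, and the summed mast cell markers at 167, 117, 190.0 and 179 CPM against 103, 131, 90.4, 163 and 158 CPM, where cow C was the highest library. The part of these cells in the class II values was not tested.

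**Figure D2:**
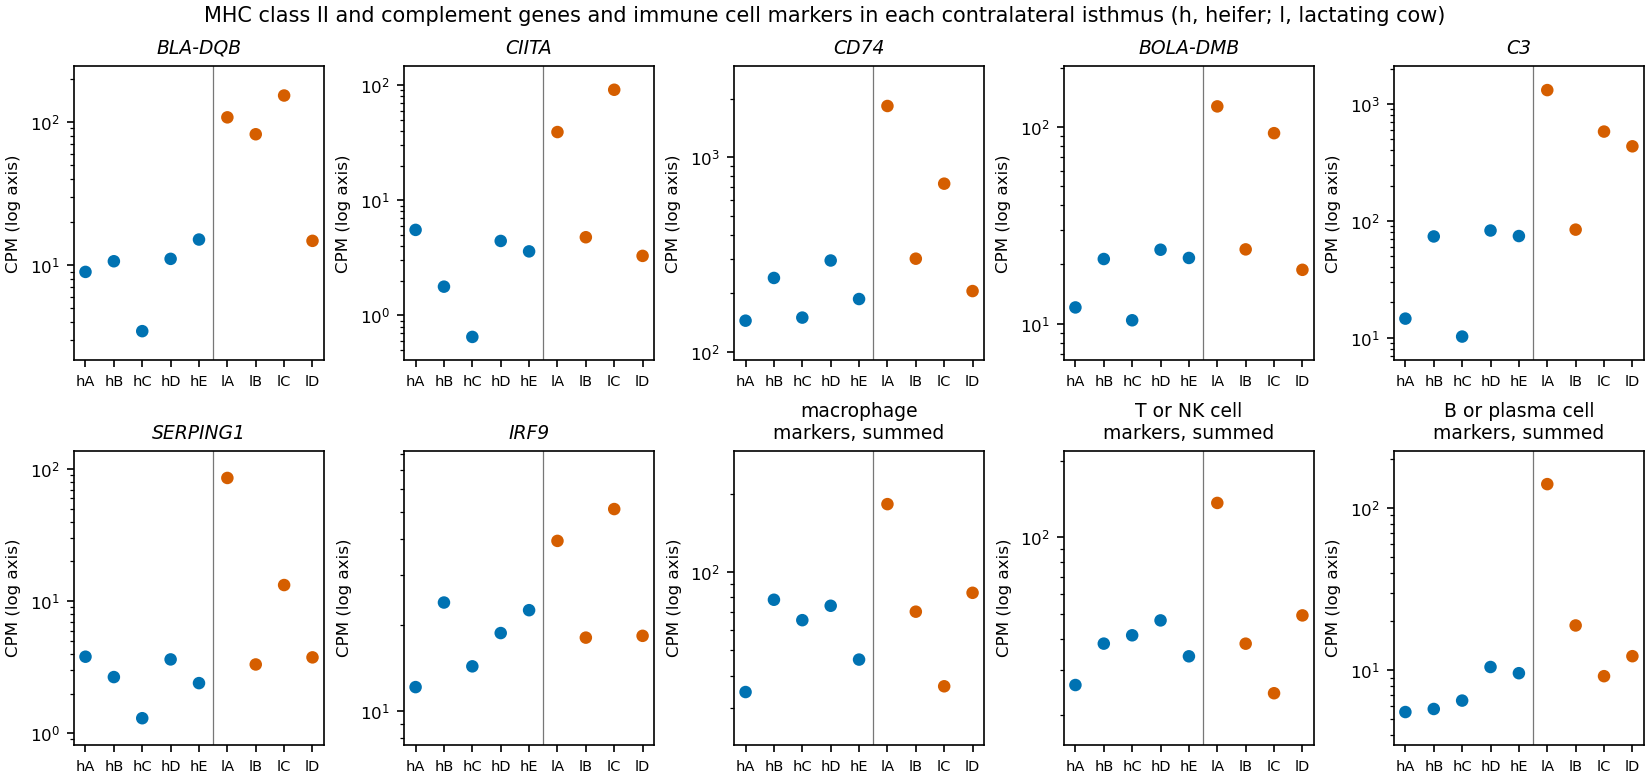
CPM (log axes) in the contralateral isthmus of heifers A to E (hA to hE, blue) and lactating cows A to D (lA to lD, orange) for 4 class II genes, 2 complement genes, IRF9 and the summed markers of macrophages, T or NK cells and B or plasma cells. CIITA, CD74, BOLA-DMB and IRF9 were high in cows A and C, and the 3 sums of immune cell markers were highest in cow A. In cow C CD74 stood at 730.4 CPM and the macrophage sum at 36.4 CPM.

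Of 17 complement genes tested, 13 were higher and 4 lower in lactating cows, with a median of 0.35. At an unadjusted p under 0.05, 3 were higher and 1 lower, against 5.35% and 5.34% of all genes. Without lactating cow A the median was 0.23, with 10 higher and 7 lower, without heifer E it was 0.65, and without lactating cow C 6 were higher and 0 lower at that threshold. Beside C3, the C1 inhibitor gene SERPING1 had 85.8, 3.32, 13.3 and 3.76 CPM in lactating cows A to D and 3.80, 2.67, 1.30, 3.63 and 2.40 CPM in heifers A to E (3.29 ± 0.92). Cow A was far above cow C in SERPING1, and cows B and D were within the range of the heifers. The component C4A had 61.5, 12.7, 36.4 and 11.04 CPM against 8.99, 20.4, 7.16, 9.67 and 18.5 CPM (1.27 ± 0.51), and the membrane regulator CD59 was lower, at 9.58, 7.26, 6.42 and 10.3 CPM against 12.8, 13.8, 12.6, 12.3 and 9.84 CPM (-0.53 ± 0.20). Interferon-stimulated genes divided 18 higher to 9 lower of 27, with 2 and 1 at an unadjusted p under 0.05 (11.1%, near the 10.7% of all genes). Their median was 0.21, which was -0.03 without lactating cow C, 0.06 without cow A and 0.46 without heifer E. The transcription factor gene IRF9 had 39.5, 18.1, 51.1 and 18.3 CPM in the cows and 12.1, 24.0, 14.3, 18.7 and 22.6 CPM in the heifers (0.81 ± 0.33). As for CIITA, CD74 and BOLA-DMB, it was high in cows A and C and at the heifers' level in cows B and D. IFI6 was lower in the cows (-1.09 ± 0.45), with 152, 84.9, 101 and 75.2 CPM in the cows and 102, 164, 125, 177 and 538 CPM in the heifers, of which E was the highest.

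Mucosal defence and mucin genes were higher for 12 and lower for 4 of 16 tested, with a median of 0.25. At an unadjusted p under 0.05, 1 was higher and 2 lower, against 5.35% and 5.34% of all genes. Without lactating cow A, 9 were higher and 7 lower and the median was 0.02. The membrane mucin MUC15 was lower in every cow than in every heifer, at 15.4, 21.6, 13.7 and 16.9 CPM against 27.7, 29.8, 27.5, 26.2 and 24.9 CPM (-0.68 ± 0.15, adjusted p of 0.0469 by DESeq2). BPIFB1, a secreted protein of the bactericidal permeability-increasing fold, had 59.1, 98.2, 26.5 and 56.8 CPM against 94.0, 103, 191, 122 and 85.4 CPM (-0.98 ± 0.33). PIGR, the receptor that carries polymeric antibodies across epithelia, had 43.7, 6.23, 1.71 and 1.88 CPM in lactating cows A to D and 1.38, 2.67, 0, 1.21 and 4.32 CPM in heifers A to E (2.86 ± 1.04). Cow A alone was far above the heifers, and without it the log2 fold change of PIGR was 0.82. The large membrane mucin MUC16 had 6367, 4319.9, 9730.4 and 7342 CPM against 1482, 3684, 789.8, 4761 and 6831 CPM (0.99 ± 0.51), with cows A and B overlapping heifers D and E and heifers A and C the lowest.

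Most genes of cholesterol synthesis were lower in lactating cows. Of the 22 tested genes of cholesterol biosynthesis, 18 were lower and 4 higher, 9 of them at an unadjusted p under 0.05, all lower (5.34% of all genes), and 0 had an adjusted p under 0.05. Their median log2 fold change was -0.28. MVD, the decarboxylase of the mevalonate pathway, had 8.38, 7.47, 4.28 and 6.11 CPM in lactating cows A to D and 12.1, 21.3, 18.6, 15.7 and 6.48 CPM in heifers A to E (-1.15 ± 0.34). HMGCS1, the synthase that makes HMG-CoA for this pathway, had 100.2, 91.7, 101 and 97.7 CPM against 173, 114, 219, 191 and 96.0 CPM (-0.69 ± 0.21). The 4 cows lay close to each other, below heifers A to D and around heifer E. SQLE, the squalene epoxidase, had 56.7, 57.7, 48.8 and 34.3 CPM against 90.2, 50.6, 123, 85.6 and 56.6 CPM (-0.71 ± 0.25), and DHCR7, the last enzyme of the pathway, had 54.7, 52.3, 54.6 and 47.7 CPM against 57.7, 73.8, 79.4, 65.9 and 62.1 CPM (-0.37 ± 0.11), without overlap. Summed over the list the level was 1175, 1232, 1007 and 958 CPM in the cows and 1406, 1295, 1726, 1430.1 and 1156 CPM in the heifers, so that cows A and B lay above heifer E. Heifer C had the highest sum, and without it 5 of the 22 genes had an unadjusted p under 0.05, as without lactating cow D. Without heifer C and lactating cow C there were 4.

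INSIG1, which holds the sterol-sensing complex in the endoplasmic reticulum, had 15.8, 15.8, 20.1 and 13.9 CPM in lactating cows A to D and 21.1, 30.7, 33.2, 33.6 and 17.99 CPM in heifers A to E (-0.73 ± 0.21), with cow C above heifer E. SREBF2, the transcription factor of cholesterol synthesis, had 187, 213, 152 and 152 CPM against 247, 238, 224, 229 and 211 CPM (-0.38 ± 0.12), whereas the lysosomal lipase LIPA was higher (0.45 ± 0.19). The uptake and sterol control list as a whole, with 13 genes tested, had 9 lower and 4 higher, 3 and 1 at an unadjusted p under 0.05, and a median of -0.10, which was -0.19 without lactating cow D.

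Cholesterol efflux and lipoprotein handling had 10 lower and 3 higher of 13, with 4 and 1 at an unadjusted p under 0.05, and a median of -0.19. Without lactating cow C, heifer B, heifer C or heifer D, 2 were lower at that threshold. The endocytic receptor LRP2 had 1746, 1353, 541 and 1209 CPM in lactating cows A to D and 2192, 2441, 4615, 2199 and 1431 CPM in heifers A to E (-1.08 ± 0.36), with cow C the lowest and heifer C the highest library, and cow A above heifer E. Its relative LRP1 was higher in every cow than in every heifer, at 150.5, 132, 131 and 163 CPM against 70.2, 117, 52.5, 109 and 129.8 CPM (0.60 ± 0.23). CYP27A1, which hydroxylates cholesterol, was at 141, 159, 84.5 and 113 CPM against 207, 173, 183, 169 and 148 CPM (-0.49 ± 0.17). Fatty acid synthesis and desaturation had 7 lower and 3 higher of 10 and a median of -0.22. FASN, the fatty acid synthase, had 129, 127, 106 and 104 CPM against 173, 156, 204, 159.8 and 119 CPM (-0.47 ± 0.15), and ACLY, which supplies its acetyl-CoA, had 87.4, 97.6, 94.3 and 95.4 CPM against 127, 111, 119, 104 and 101 CPM (-0.26 ± 0.10), without overlap. The desaturase FADS2 was higher (0.69 ± 0.30). Fatty acid oxidation genes divided evenly, 12 higher and 11 lower of 23 with a median of 0.02, and PPARA is among them. The fatty acid transporter CD36 was higher (1.07 ± 0.37), and FABP3 was lower (-2.25 ± 0.89) with 4.79, 2.28, 0.214 and 2.82 CPM in the cows and 5.53, 9.33, 39.7, 3.83 and 2.16 CPM in the heifers, and heifer C far above the other 8 libraries.

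Glycolysis and glucose or lactate transport had 13 lower and 5 higher of 18 and a median of -0.21. An unadjusted p under 0.05 was found for 5 of the 18, all lower (5.34% of all genes). Without heifer C, 3 of 17 were at that threshold, all lower, and the median was -0.12. The lactate exporter SLC16A3 had 6.19, 3.74, 6.85 and 7.05 CPM in lactating cows A to D and 12.8, 7.997, 13.7, 13.1 and 7.92 CPM in heifers A to E (-0.90 ± 0.27), without overlap. BSG, the chaperone of the lactate transporters, had 516, 548, 376 and 467 CPM against 713, 678, 1230.0, 683 and 498 CPM (-0.67 ± 0.23), and HK2, a hexokinase, had 8.98, 13.3, 1.93 and 11.3 CPM against 14.2, 24.4, 28.6, 20.8 and 11.5 CPM (-1.16 ± 0.43). In HK2 cow C was the lowest and heifer C the highest library. The pyruvate and TCA cycle list had a median of -0.08 with 1 gene at an unadjusted p under 0.05 in each direction, ME2 higher (0.47 ± 0.12) and SUCLA2 lower (-0.22 ± 0.10). PDK4, the kinase that closes pyruvate dehydrogenase when fat is burnt, had 609, 731, 109 and 257 CPM against 175, 372, 178, 93.7 and 299 CPM (0.94 ± 0.51, unadjusted p = 0.0914, edgeR). Its groups overlapped, with cows A and B above all heifers and cow C below 4 of them. The AMP-activated protein kinase subunits and the insulin, growth hormone and IGF list had medians of -0.04 and 0.00 and 0 genes at an unadjusted p under 0.05. IGFBP3, a carrier of insulin-like growth factors, had 67.5, 99.4, 38.1 and 52.6 CPM against 179, 47.5, 96.9, 169 and 78.2 CPM (-0.82 ± 0.38), and the growth hormone receptor GHR had 48.1, 23.9, 37.4 and 13.9 CPM against 35.3, 7.11, 20.8, 12.7 and 17.8 CPM (0.73 ± 0.42).

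Amino acid transporters were lower for 13 and higher for 3 of 16 tested, and the median was -0.36. An unadjusted p under 0.05 was found for 3 of the 16, all lower (5.34% of all genes). The summed level of the list was 1300.4, 1342, 895 and 1199.6 CPM in lactating cows A to D and 1751, 1481, 1560.0, 1523 and 1415 CPM in heifers A to E, without overlap. SLC38A1 and SLC38A2, which take up small neutral amino acids, had 28.5, 35.7, 21.4 and 37.3 CPM against 45.6, 45.3, 49.9, 49.2 and 38.6 CPM (-0.57 ± 0.16) and 193, 167, 153 and 154 CPM against 228, 211, 189.5, 172 and 205 CPM (-0.26 ± 0.11). The glycine transporter SLC6A9 had 229.7, 256, 106 and 288 CPM against 316, 331, 289.7, 394 and 253 CPM (-0.52 ± 0.24). Cow C had the lowest level in all 3 genes. The median of the list was -0.20 without heifer C, and without lactating cow C 1 member had an unadjusted p under 0.05, lower in lactating cows.

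**Figure D3:**
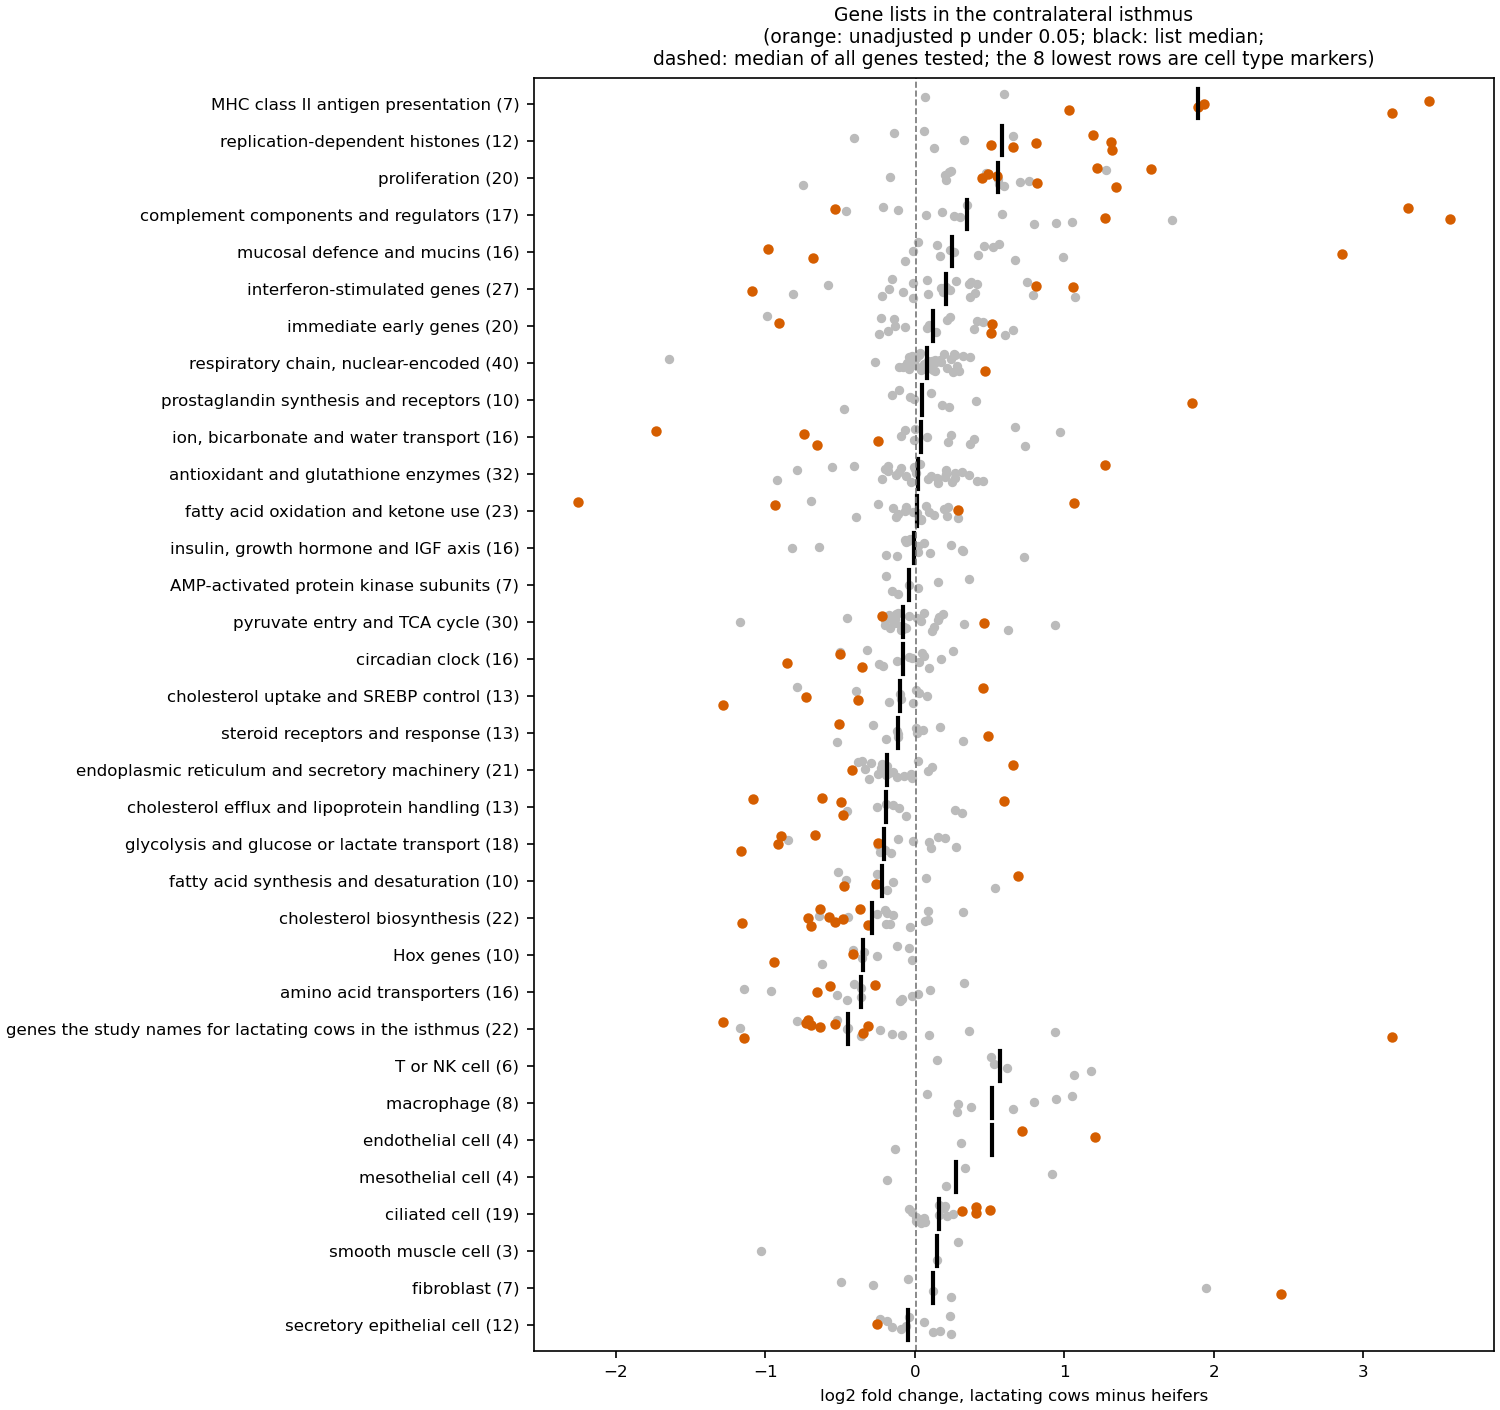
Log2 fold changes (lactating cows minus heifers, contralateral isthmus) of the members of each gene list with 3 or more genes tested, with the number tested in parentheses. Orange points have an unadjusted p under 0.05 by edgeR, grey points do not, black bars are list medians and the dashed line is the median of all genes. Medians ran from 1.90 for MHC class II to -0.36 for amino acid transporters among the pathway lists that were not taken from the study.

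Proliferation genes were higher for 18 of 20 tested, 7 of them at an unadjusted p under 0.05. Replication-dependent histone genes were higher for 10 of 12, 6 of them at that threshold. The medians were 0.55 and 0.58. Of all genes, 51.3% were higher, and 5.35% were higher at that threshold. CENPF, a kinetochore protein, had 34.3, 20.5, 65.7 and 16.2 CPM in lactating cows A to D and 9.33, 7.55, 9.11, 12.3 and 18.5 CPM in heifers A to E (1.58 ± 0.40, adjusted p of 0.0307 by DESeq2). The spindle factor TPX2 had 6.39, 3.11, 7.49 and 2.82 CPM against 1.38, 2.67, 1.08, 2.22 and 3.36 CPM (1.22 ± 0.43), and MCM2, a subunit of the replicative helicase, had 18.8, 16.0, 21.2 and 13.2 CPM against 14.9, 12, 13.2, 11.7 and 7.92 CPM (0.55 ± 0.21). Cows A and C were the highest libraries in each of the 3 genes. Among the histones, H2B had 42.1, 35.9, 128 and 39.0 CPM against 19.0, 29.3, 13.9, 25.4 and 36.2 CPM (1.32 ± 0.40), and HIST1H2BB had 20.8, 18.5, 26.1 and 28.7 CPM against 15.6, 18.2, 15.4, 13.5 and 20.4 CPM (0.51 ± 0.18). Histone genes are close copies of each other, so their counts may have been split. Without lactating cow C, 1 proliferation gene and 2 histone genes had an unadjusted p under 0.05, all higher, and the medians were 0.38 and 0.31. Without lactating cow A, 2 proliferation genes were higher and 1 lower at that threshold, with a median of 0.47. Without heifer C, 5 proliferation genes and 3 histone genes were higher at that threshold. The summed proliferation level was 755, 695, 496 and 466 CPM in the cows and 719, 816, 856, 574 and 626 CPM in the heifers, so that the sum, dominated by the mitotic cyclin gene CCNB1 (415, 432, 101 and 247 against 513, 624, 650.1, 344 and 388 CPM), was not higher in the cows.

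All 10 Hox genes tested were lower in lactating cows, 2 of them at an unadjusted p under 0.05, with a median of -0.34. Without lactating cow A, 7 were lower and 3 higher, and without heifer A the median was -0.22. HOXA5 had 8.98, 8.51, 8.77 and 15.5 CPM in lactating cows A to D and 17.6, 23.1, 16.3, 26.8 and 16.8 CPM in heifers A to E (-0.94 ± 0.24), and HOXB4 had 15.6, 14.1, 20.1 and 23.7 CPM against 30.1, 20.4, 22.1, 26.0 and 24.0 CPM (-0.41 ± 0.18). HOXA5 did not overlap between the groups and HOXB4 did. Steroid receptors and response genes divided 6 higher to 7 lower with a median of -0.11, which was 0.01 without lactating cow B and -0.01 without heifer A. The progesterone receptor PGR had 84.2, 52.7, 58.8 and 66.0 CPM against 179, 66.6, 64.4, 78.0 and 84.2 CPM (-0.52 ± 0.29), with heifer A more than 2 times the other heifers, and the estrogen receptor ESR1 had 527, 438, 684 and 510.2 CPM against 511, 379, 287, 458 and 532 CPM (0.33 ± 0.19). Both overlapped between the groups. GREB1, an estrogen-responsive gene, was lower (-0.50 ± 0.20), and the glucocorticoid receptor NR3C1 was higher (0.49 ± 0.21). The ion, bicarbonate and water transport genes divided 8 higher to 8 lower with a median of 0.04, and 4 of 16 had an unadjusted p under 0.05, all lower. Without lactating cow C, 1 was higher and 2 lower at that threshold. The epithelial sodium channel subunit SCNN1A had 63.5, 63.7, 47.1 and 50.7 CPM against 81.6, 99.1, 123, 80.4 and 61.4 CPM (-0.66 ± 0.19), and the carbonic anhydrase CA13 had 3.79, 3.11, 0.214 and 1.64 CPM against 5.18, 4.89, 14.7, 5.84 and 5.997 CPM (-1.73 ± 0.57), with as few as 1 count in cow C.

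Lists with a median near that of all genes were prostaglandin synthesis and receptors (0.05), antioxidant and glutathione enzymes (0.02), the nuclear-encoded respiratory chain (0.08), the circadian clock (-0.08) and immediate early genes (0.12). Each of the first 3 of these lists had 1 gene at an unadjusted p under 0.05, higher in lactating cows, the clock had 3, all lower, and immediate early genes had 2 higher and 1 lower. PTGDS, the prostaglandin D synthase, had 14.6, 2.70, 5.35 and 12.9 CPM in lactating cows A to D and 0.346, 0, 2.39, 5.04 and 3.36 CPM in heifers A to E (1.86 ± 0.69), and heme oxygenase HMOX1 had 25.9, 13.9, 3.64 and 9.16 CPM against 4.49, 7.997, 4.34, 6.85 and 4.08 CPM (1.27 ± 0.47), highest in cow A. The clock output factor TEF was lower in every cow than in every heifer (-0.50 ± 0.16), and CLOCK was lower (-0.36 ± 0.13). Endoplasmic reticulum and secretory machinery genes were lower for 17 of 21, with 1 gene at an unadjusted p under 0.05 in each direction and a median of -0.19. The chaperone HYOU1 had 61.7, 85.5, 79.6 and 79.9 CPM against 99.9, 79.1, 99.5, 108 and 126 CPM (-0.42 ± 0.14), whereas the stress factor DDIT3 was higher (0.66 ± 0.22).

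**Figure D4:**
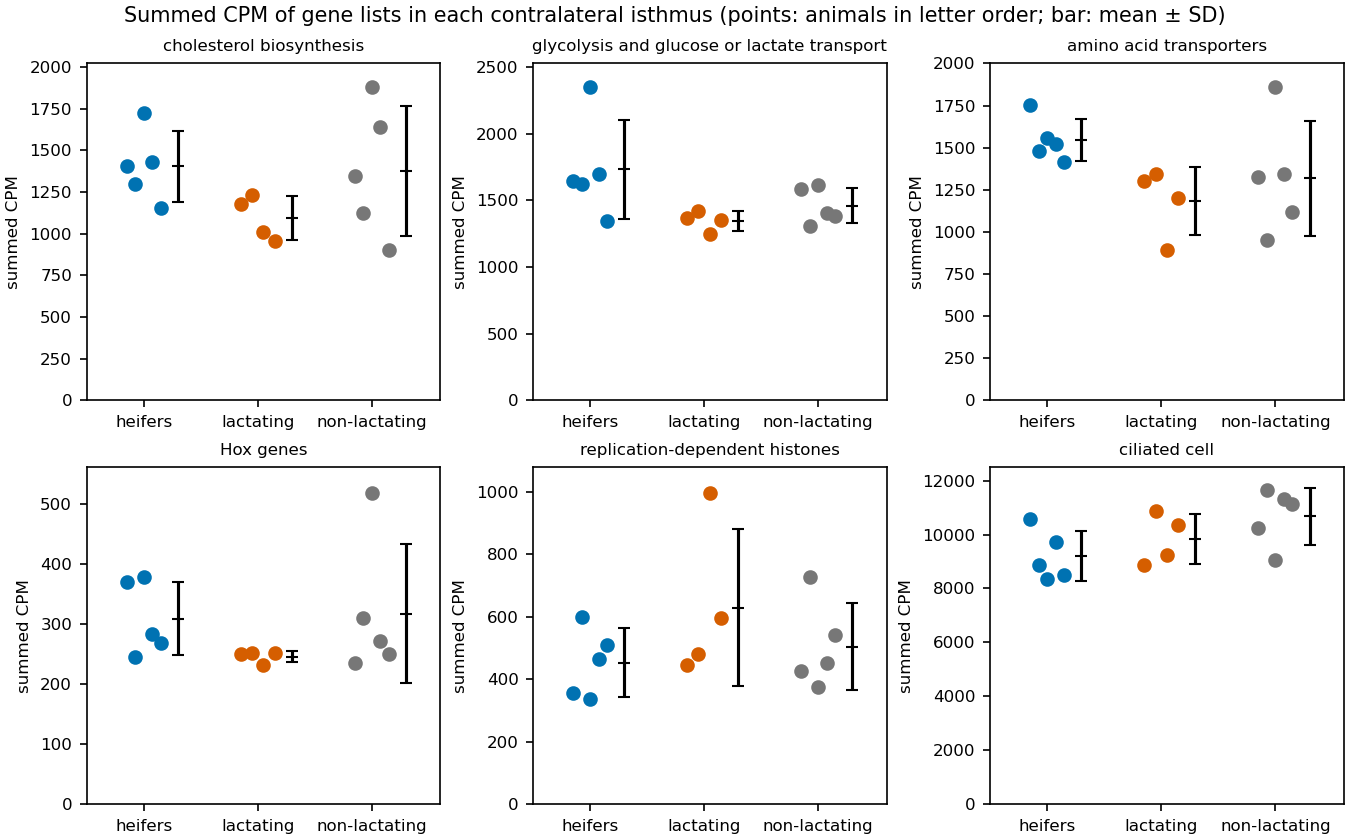
Summed CPM of 6 gene lists in the contralateral isthmus of 5 heifers (blue), 4 lactating cows (orange) and 5 non-lactating cows (grey). Points are animals in letter order, bars are mean ± SD and the axes start at 0. The amino acid transporter sums of the lactating cows (895 to 1342 CPM) lay below those of the heifers (1415 to 1751 CPM), and the other 5 lists overlapped between these groups.

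Of 19 markers of ciliated cells, 17 were higher and 2 lower in lactating cows, 4 of them at an unadjusted p under 0.05, all higher (5.35% of all genes), and the median was 0.16 against 0.01 over all genes. Leaving out each animal gave 11 (without lactating cow B, median 0.09) to 19 (without cow A, 0.21) higher. RSPH4A, a protein of the ciliary radial spoke, had 167, 240.2, 243 and 204 CPM in lactating cows A to D and 178, 159.5, 151, 157 and 160.5 CPM in heifers A to E (0.41 ± 0.12), and FOXJ1 had a log2 fold change of 0.04 ± 0.13. The summed ciliated level was 8862 to 10859.9 CPM in the cows and 8343 to 10575 CPM in the heifers. The 12 secretory markers divided 5 higher to 7 lower with a median of -0.05, and their sum, dominated by OVGP1, was 6755 to 16419 CPM against 1889.9 to 20574 CPM. OVGP1 itself differed by 0.24 ± 0.90, and by -0.07 without heifer C. Among the other cell types, 2 of 4 endothelial markers had an unadjusted p under 0.05, KDR (1.21 ± 0.54) and TEK (0.72 ± 0.28), both higher (5.35% of all genes). Of the 4 endothelial markers, 3 were higher and 1 lower, the defining marker PECAM1 at -0.13. The endothelial sum was at 50.7, 48.8, 124 and 94.9 CPM in the cows and 17.6 to 67.7 CPM in the heifers. Without lactating cow C, 0 of the 4 had an unadjusted p under 0.05 and their median went from 0.52 to 0.26. The fibroblast sum was 591, 260.3, 212 and 115 CPM against 212 to 346 CPM, smooth muscle 22.5 to 57.5 against 39.3 to 87.4 CPM, mesothelium 186 to 423 against 92.6 to 347 CPM, and neutrophils 1.64 to 25.9 against 2.07 to 10.7 CPM. Of 2 mast cell markers tested 1 was higher and 1 lower, and 0 of 7 red blood cell markers passed the filter on low counts. The part of these cells in the gene lists above was not tested.

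The study names 23 genes of the table for the isthmus of these animals, so they are no independent evidence of direction here. Most were named for lactating cows against heifers on the ipsilateral side, but FAT4, SPP1, PGM5, STEAP4, MYLK3 and TGFA were named for lactating against non-lactating cows and PGR for one side against the other, so that the groups set against each other here are not those they were named for. Of the 22 tested, 18 were lower and 4 higher in the contralateral isthmus, 9 and 1 of them at an unadjusted p under 0.05, with a median of -0.45. Many of them are the genes of cholesterol metabolism given above. Others were GAT, at 27.1, 37.6, 8.99 and 26.5 CPM in lactating cows A to D and 77.4, 49.3, 38.6, 70.5 and 42.9 CPM in heifers A to E (-1.14 ± 0.34), and the growth factor TGFA, at 27.7, 26.8, 30.6 and 38.3 CPM against 38.0, 34.7, 37.9, 48.4 and 36.9 CPM (-0.34 ± 0.14). The sterol carrier protein gene SCP2 had 272, 332, 154 and 395 CPM against 439, 410.1, 962, 438 and 245 CPM (-0.79 ± 0.36), with heifer C at more than 2 times any other library. STEAP4 (0.09 ± 0.18), PGM5 (-0.09 ± 0.29) and MYLK3 (-0.15 ± 0.17) differed by less than their standard error, and in the ipsilateral isthmus their log2 fold changes were 1.08 ± 0.30, -1.01 ± 0.35 and 0.36 ± 0.15. Against non-lactating cows in the contralateral isthmus they were 0.04 ± 0.20, -0.09 ± 0.42 and -0.07 ± 0.16. SPP1, which encodes osteopontin, had 1.40, 58.9, 1.07 and 1.17 CPM against 7.26, 1.33, 0.867, 0.806 and 0.480 CPM and was not tested after the filter on low counts.

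The same contrast was fitted in the ipsilateral isthmus and the contralateral ampulla of the same animals. edgeR's quasi-likelihood test called 0 of 13840 genes in the ipsilateral isthmus (1446 or 10.4% at an unadjusted p under 0.05) and 0 of 13926 in the contralateral ampulla (659 or 4.73%). The study's own test of the ipsilateral isthmus, made with DESeq2, did report genes that differed between these 2 groups. DESeq2 counts for this contrast in these tissues are not given here. The 0 of edgeR therefore does not show that no gene differed on that side. BLA-DQB, CIITA and CD74 had log2 fold changes of 3.81 ± 0.66, 3.48 ± 0.95 and 2.53 ± 0.71 in the ipsilateral isthmus and 3.47 ± 0.70, 2.73 ± 0.67 and 1.76 ± 0.67 in the ampulla, and the class II list had medians of 2.16 and 1.42. C3 had 3.94 ± 1.01 in the ipsilateral isthmus and 1.03 ± 0.49 in the ampulla. Cholesterol biosynthesis had medians of -0.52 and -0.22. Histone genes had medians of 0.54 and -0.37, and amino acid transporters -0.25 and -0.24. PPARA had -0.34 ± 0.23 and -0.41 ± 0.39, COL27A1 -0.77 ± 0.27 and 0.12 ± 0.26, and S100A4 -0.70 ± 0.23 and 0.42 ± 0.69. The 20 genes were chosen for their p in the contralateral isthmus, so that the rank of that tissue among the 3 is set by the choice.

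Whether the contrast differed between tissues was tested as an interaction. The tissues compared came from the same animals, but the fit had no term for the animal and treated their libraries as independent. The shares of genes, the p, the gene order and the standard errors of differences between tissues given below come from that fit. With the animal as block, 0 genes were called for either difference, but the smallest adjusted p was lower for both. Between the contralateral and the ipsilateral isthmus 0 of 14620 genes differed (edgeR), with 366 at an unadjusted p under 0.05 (2.5%), and between the contralateral isthmus and the contralateral ampulla 0 of 14886, with 574 (3.86%). Leaving aside genes named by a LOC number, the smallest unadjusted p between sides belonged to CTBS, a lysosomal chitobiase, which had 0.599, 1.04, 0.642 and 0.705 CPM in the contralateral isthmus of lactating cows A to D and 4.84, 3.11, 1.52, 3.22 and 1.20 CPM in that of heifers A to E, and 3.73, 2.32, 2.19 and 2.62 against 1.28, 1.33, 1.17, 1.69 and 1.57 CPM on the ipsilateral side. The cows were thus below the heifers on the contralateral and above them on the ipsilateral side, at low counts. LIPT1, a lipoyl transferase, differed by 0.82 ± 0.31 on the contralateral and -0.72 ± 0.30 on the ipsilateral side, and the tetraspanin CD9 by 0.27 ± 0.10 and -0.23 ± 0.11. Between regions the smallest p belonged to the heat shock gene HSPA1A, at 0.59 ± 0.18 in the isthmus and -0.51 ± 0.15 in the ampulla. It had 1364, 938, 1045 and 1112 CPM in the isthmus of the cows and 784, 884, 494, 687 and 874 CPM in that of the heifers, and 1578, 1646, 1493 and 1992 against 2484, 2304, 2547, 2617 and 2202 CPM in the ampulla. Its groups did not overlap in either region, and the cows were above in the isthmus and below in the ampulla. PCDHGA2 (0.25 ± 0.20 and -1.04 ± 0.23) followed, with the larger log2 fold change in the ampulla. S100A4 had a difference between sides of -1.67 ± 0.47 (unadjusted p = 0.00222, adjusted p = 1., edgeR), and COL27A1 had one between regions of -1.43 ± 0.38 (unadjusted p = 0.00118, adjusted p = 1., edgeR).

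**Figure D5:**
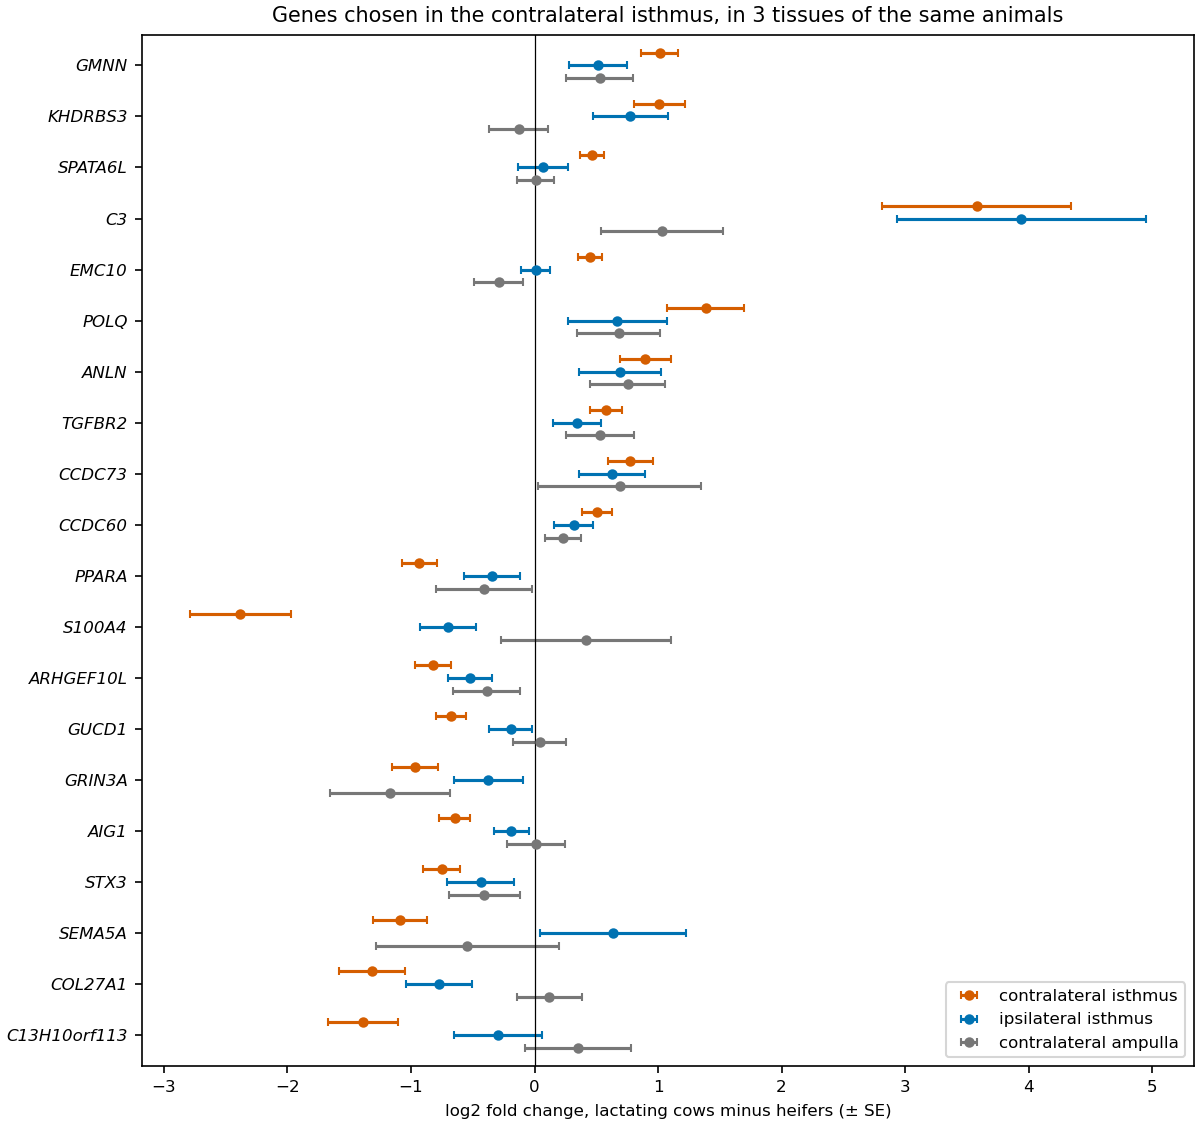
Log2 fold changes (lactating cows minus heifers, ± SE) of the 20 genes chosen in the contralateral isthmus, in the contralateral isthmus (orange), the ipsilateral isthmus (blue) and the contralateral ampulla (grey) of the same animals. C3 lay at 3.58 and 3.94 in the 2 isthmus samples and 1.03 in the ampulla, and SEMA5A at -1.09, 0.64 and -0.54.

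Lactating cows were also set against the non-lactating cows, which had calved and had not been milked. edgeR's quasi-likelihood test after Benjamini-Hochberg adjustment called 0 of 13902 genes (smallest adjusted p = 0.792), with 548 at an unadjusted p under 0.05 (3.94%), and DESeq2 called 2. BLA-DQB had the smallest p, at 12.5, 2.59, 10.3, 7.95 and 9.03 CPM in non-lactating cows A to E against the lactating values given above (3.33 ± 0.54), with all 4 lactating cows above all 5 non-lactating cows. SMIM10 had 1.20, 0.415, 0.642 and 1.17 CPM in lactating cows, 5.18, 2.59, 5.07, 3.18 and 5.46 CPM in non-lactating cows and 5.88, 3.55, 10.6, 3.22 and 2.16 CPM in heifers, and AIG1 had 21.8, 24.7, 22.9 and 27.0 CPM, 38.4, 40.4, 34.2, 39.2 and 31.8 CPM and 33.5, 38.7, 44.2, 34.3 and 38.6 CPM in the same order. Both were below every animal of the other 2 groups in every lactating cow, SMIM10 at low counts in the lactating cows. In CD74, 298, 248, 227, 707 and 257 CPM in non-lactating cows A to E included 1 animal, cow D, at the level of lactating cow C. TGFBR2 had 27.6, 27.4, 27.2, 28.1 and 31.8 CPM in non-lactating cows, all above every heifer, and GMNN 26.7, 21.2, 13.9, 12.4 and 21.9 CPM, with 4 of the 5 above every heifer. Between non-lactating cows and the same heifers edgeR called 0 of 13512 genes, with 1240 at an unadjusted p under 0.05 (9.18%). The class II list had a median of 0.35 in that comparison, cholesterol biosynthesis -0.03, amino acid transporters -0.31 and Hox genes 0.07. These 2 comparisons share the 5 heifers, so their values are given side by side.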

How the data were processed

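RNA of scraped oviduct epithelium was sequenced from a NuGEN Encore stranded library as single-end reads. Per the study's methods and the processing notes, the authors demultiplexed the reads with bcl2fastq 1.8.4, aligned them to the bovine genome build Btau_4.6.1 with TopHat2 2.0.13 and counted them per gene, by strand and in intersection-strict mode, with htseq-count (HTSeq 0.6.1). The deposited values are raw counts in 1 table of 31908 lines, 31903 genes and 5 summary lines, which were left out of library sizes and tests. In the 9 libraries 8.66 to 11.9% of the alignments recorded in the table lay on genes, 36.4 to 46.2% on no feature and 41.9 to 54.9% were not unique.

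Counts were filtered with filterByExpr (count minimum 10), scaled by TMM and tested with edgeR 4.0.16 (quasi-likelihood test, R 4.3.3, limma 3.58.1) at an adjusted p of 0.05 (Benjamini-Hochberg) in the 9 libraries alone. DESeq2 1.42.0, limma-voom, other scalings and filters, thinned counts and leaving out each animal were alternatives, and the fit without lactating cow C and heifer C was added after seeing the data. The tests were checked on simulated counts, drawn independently for each library and without an effect of the animal. That check therefore does not cover the shared animals of the interaction fits. CPM were scaled by TMM over all 56 libraries. No replicate pair agreed within sampling noise (chi-square per degree of freedom 7.33 to 28.3 over 16 pairs), and each library is 1 animal. Column names carry the animal, which pairs tissues. Own-animal deviations correlated with the ipsilateral isthmus at -0.043 to 0.514 (median 0.429, best with its own animal in 8 of 9) and with the contralateral ampulla at 0.0751 to 0.514 (median 0.250, 8 of 9).

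Of 725 entries in 39 gene lists, 674 were found and 514 tested. Named genes were the 10 per direction of smallest p with a gene symbol (no LOC number), mean CPM of 1 or more and no overlap, up to 4 members per list of smallest p, the defining markers (the first of each list), the genes the study names, and the 3 of smallest p for each other test. CCNB1 was named after its values were seen, and a few genes that the rule names are not reported here. The members and lists were chosen with earlier results of these data known. No genome of the build was used here, so no coordinates or sequences are given, and gene levels are not compared between genes.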

Additional observations from a re-analysis of the deposited data

Results flagged for a closer look

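A library far from the rest of its group was found in 7 of 96 groups of 4 or 5 libraries, over 47 genes (the highest or lowest value against the gap that Dixon's test allows). Chance alone gives about 1 in 20 groups. SPP1 accounted for 2 of them, with 58.9 CPM in lactating cow B against 1.07 to 1.40 CPM in the other lactating cows, and 7.26 CPM in heifer A against 0.480 to 1.33 CPM in the other heifers. Lactating cow C stood out in KHDRBS3, at 41.7 CPM against 36.7 to 37.3 CPM, and in PPARA, at 13.9 CPM against 15.7 to 16.0 CPM, in both genes on the side away from the heifers. In both genes the other cows lay so close together that a small gap sufficed for the flag. Both were also chosen for no overlap with the heifers. Among the heifers, heifer C had 962 CPM of SCP2 against 245 to 439 CPM, heifer A had 179 CPM of PGR against 64.4 to 84.2 CPM, and heifer D had 48.4 CPM of TGFA against 34.7 to 38.0 CPM.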

How the results depend on the processing

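Of the comparison between lactating cows and heifers, edgeR gave 0 calls under every other scaling, filter and dispersion tried, as did limma-voom, thinned counts and the fit with all 14 libraries. DESeq2's Wald test called 73 genes, 51 with its beta prior, an unadjusted p under 0.001 kept 34, and leaving out each animal in turn gave 0 to 1 (without lactating cow D, BLA-DQB). Against non-lactating cows, DESeq2 called 2 genes and leaving out each animal gave 0 to 1, again without lactating cow D. The cause of these differences was not tested. The animal as replicate block gave 0 calls for both differences between tissues. Lactating cows and heifers are different animals, so that the comparison between them has no pairing by animal. The columns do not carry the labels' replicate numbers. They carry a leading digit whose meaning the labels do not give. It is shared by 1 lactating cow and 1 heifer and otherwise differs between these groups, and its part in the comparison was not tested.

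Each of 34 lists gave a median under each of the other settings. Of these values, 639 stayed within the spread between replicates and 7 moved beyond it: MHC class II to 0.56 under the beta prior and 1.03 without lactating cow A, steroid receptors to 0.01 without lactating cow B and -0.01 without heifer A, AMP-activated protein kinase subunits to 0.09 without lactating cow A, and, without heifer C, antioxidant enzymes to 0.11 and amino acid transporters to -0.20. The 639 include medians that changed sign within that spread. Interferon-stimulated genes went from 0.21 to -0.03 without lactating cow C, and macrophage markers from 0.52 to -0.07 without lactating cow A. The log2 fold changes of the named genes that turned sign under some setting are given next. With limma-voom the values were -0.013 for ACTA2, -0.21 for LUM, 0.17 for MSLN and 0.13 for PECAM1. Thinned counts gave 0.024 for PGM5, and without lactating cow C and heifer C STEAP4 was -0.072 and MYLK3 0.017. Leaving out each animal gave ranges of -0.41 to 0.44 for ACTA2, -0.078 to 1.11 for C1QA, -0.15 to 1.01 for CD14, -0.055 to 1.39 for CD2, -0.21 to 0.57 for CD68, -0.16 to 0.52 for COL1A2, -0.034 to 0.11 for FOXJ1, -2.07 to 2.38 for LUM, -0.47 to 0.32 for MSLN, -0.017 to 0.59 for MYLK, -0.072 to 0.74 for OVGP1, -0.39 to 0.049 for PECAM1, -0.24 to 0.045 for PGM5, -0.82 to 0.84 for S100A12, -0.022 to 0.23 for STEAP4 and -0.039 to 0.44 for UPK3B.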

Other observations

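The following genes were named after their values were seen, among the 73 that DESeq2's Wald test called between lactating cows and heifers, and none of those that edgeR tested passed its quasi-likelihood test. HIF3A, a subunit of hypoxia-inducible factors, had a mean of 52.1 CPM in lactating cows and 141 CPM in heifers (DESeq2 log2 fold change -1.43 ± 0.31, adjusted p = 0.00524). SLC13A5, the sodium-coupled citrate transporter, had means of 22.2 and 73.7 CPM (-1.72 ± 0.41), and ABAT, the transaminase that degrades GABA, 36.5 and 85.5 CPM (-1.22 ± 0.29). WIF1, a secreted inhibitor of Wnt proteins, was at 19.1 and 45.6 CPM (-1.25 ± 0.33). HIF3A and ABAT were lower in every cow than in every heifer, whereas the groups overlapped in SLC13A5 and WIF1. On the higher side, the transcription factor gene KLF11 had means of 102 and 46.8 CPM (1.13 ± 0.30) and the chaperone HSP90AB1 1227 and 941 CPM (0.39 ± 0.10). Both were higher in every cow than in every heifer.

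Further DESeq2 calls were IDO1, CXCL10 and UBD, of which CXCL10 is in the list of interferon-stimulated genes, whose 27 tested members divided 18 higher to 9 lower. IDO1, which degrades tryptophan, had means of 32.4 CPM in lactating cows and 0.966 CPM in heifers (5.06 ± 1.26), the chemokine CXCL10 had 13.3 and 0.509 CPM (4.80 ± 1.31), and the ubiquitin-like protein gene UBD 13.4 and 1.82 CPM (2.89 ± 0.74). Their groups overlapped, and IDO1 and CXCL10 were below the filter on low counts of the edgeR fit. That filter asks for its count minimum in as many libraries as the smaller group has, here 4. IDO1 and CXCL10 reached it in fewer, so their means in lactating cows rest on a part of the animals. Their values by animal are not given here. B2M, the light chain of MHC class I, was higher in every cow than in every heifer, at means of 139 and 76.2 CPM (0.88 ± 0.23). The complement protease gene C1S had means of 13.3 and 1.61 CPM (3.05 ± 0.79), with overlap and also below that filter, so that the same limit holds for it.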
